A study of Mus musculus with 4 samples.

Results

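The genes described here were 40 mouse genes of the unfolded protein response and the integrated stress response, chosen by name. Of these, 25 belonged to the branch run by XBP1 and ATF6 and 15 to the branch run by ATF4. All 40 had a row in the count table of 53845 rows, and all 40 were among the 17504 genes tested. They were measured by RNA-seq in intestinal crypts, the pockets of the gut lining where its stem cells divide, from C57BL/6 mice. The control group was wild type (WT, 2 libraries). In the Vil-CREPTKO group (2 libraries), Cre recombinase under the villin promoter, which is active in intestinal epithelial cells, removed the floxed exon of Rprd1b, the gene for the transcription regulator CREPT. Cells of the crypt preparation that are not epithelial keep the gene in this model. Mice of both sexes aged 6 to 8 weeks were used in the study. The Vil-CREPTKO line came from matings in which both parents were CREPT fl/fl and 1 carried Villin-cre, and the alleles and age of each mouse behind these libraries were not given in the sources used here. The comparison asked which crypt genes depend on CREPT in the unchallenged intestine, and for these genes whether the stress response differed between the genotypes.

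Proteins bound for secretion or for membranes are folded in the endoplasmic reticulum (ER). When unfolded proteins build up there, the sensor IRE1 splices the Xbp1 mRNA, the sensor ATF6 is cut to release a transcription factor, and both factors switch on chaperones, folding enzymes, export machinery and ER-associated degradation (ERAD), which returns misfolded proteins to the cytosol for breakdown. The kinase PERK and its relatives phosphorylate eIF2α, which slows translation in general but favours translation of Atf4 mRNA, and ATF4 then switches on genes of amino acid supply. In the intestine the pathway is best known for the Paneth and goblet cells, which rely on XBP1 to handle their secretory load. Gene-level counts add spliced and unspliced Xbp1 mRNA together and do not measure the translation of Atf4.

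Total counts were 47241049 to 49369315 per library, and the biological coefficient of variation was 0.188. For most of the 40 genes the spread between libraries was thus larger than counting error. Counting error weighed most for Slc7a11, the gene with the fewest counts. Rprd1b itself was lower in Vil-CREPTKO. WT libraries held 3087 and 3030 of its counts and Vil-CREPTKO libraries 1142 and 1424 (log2 fold change -1.14 ± 0.12 SE, adjusted p = 0.0041 in edgeR). Of the 7 crypt epithelium markers, none was at 0 in any library and none passed the test (median log2 fold change -0.10). One library stood apart. In Vil-CREPTKO replicate 1, mitochondrial genes took 10.2% of counts, against 6.75% to 7.62% elsewhere. Its enterocyte markers (6 genes) summed to 20900 CPM (reads scaled to library size by TMM), against 11400 to 14800 elsewhere. Its pancreatic acinar markers (6 genes, none at 0) summed to 61.5 CPM, against 18.6 to 34.7, and its stromal and muscle markers (8 genes, 2 at 0) to 17.3 CPM, against 2.2 to 6.03. Xist, expressed from the inactive X chromosome of females, was at 860 CPM in WT replicate 2 and at most 0.539 CPM in the other libraries, so the libraries were not all of 1 sex.

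None of the 40 genes passed an adjusted p of 0.05 in edgeR's quasi-likelihood test, where 2.71% of all tested genes did. With the further requirement of a change over 2-fold the count was also 0, against 1.64% of all genes. Adjusted p-values ran from 0.0698 (Xbp1) to 0.984 (Dnajb9). At an unadjusted p under 0.05 there were 3 genes, Xbp1, Asns and Sec61b (7.5%, against 14.3% of all genes), and DESeq2 called 1 gene, Xbp1, where it called 5.61% of all genes. For 36 of the 40 genes the 95% interval of the log2 fold change lay within -1 to 1, so a change of 2-fold or more lay outside it. The exceptions were Atf3, Ppp1r15a, Chac1 and Slc7a11, all of low level. The direction was positive for 31 genes (77.5%, against 49.1% of all genes) and negative for 9, and it was positive for 19 without Vil-CREPTKO replicate 1 and for 22 with scaling by library size alone (36.1% of all genes there). With all libraries and TMM scaling they had a median log2 fold change of 0.14, against -0.0060 over all genes. Both Vil-CREPTKO libraries lay above both WT libraries for 11 genes (27.5%, against 21.0% of all genes) and below both for 3 genes (7.5%, against 24.2%).

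**Figure D1:**
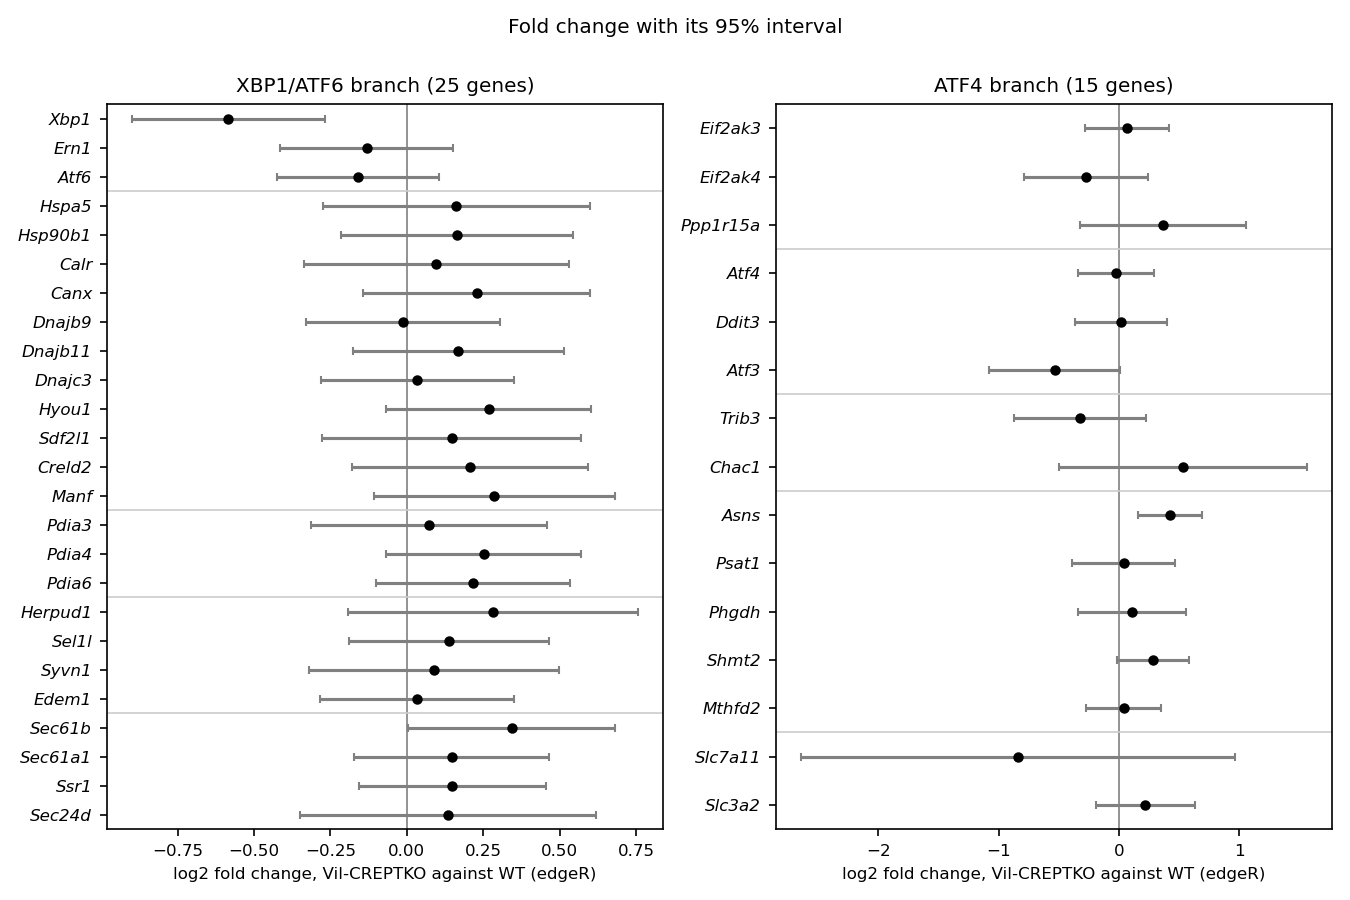
Log2 fold change of Vil-CREPTKO against WT for each gene (points) with its 95% interval from edgeR (bars), by branch and role, with horizontal lines between roles. Only the intervals of Xbp1, Asns and Sec61b leave out 0, and those of Slc7a11, Chac1, Atf3 and Ppp1r15a reach beyond 1 or -1.

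The factor and the sensors at the head of the XBP1/ATF6 branch gave negative log2 fold changes, and 21 of the other 22 genes of the branch gave positive ones, with none past the test. Xbp1 (chr11:5520659-5525893, GRCm38) encodes the transcription factor made from IRE1-spliced mRNA. It was at 183 and 166 CPM in WT and at 124 and 109 CPM in Vil-CREPTKO. The groups did not overlap, and the Vil-CREPTKO mean was 66.7% of WT (175 ± 11.5 against 117 ± 11.1 CPM, mean ± SD, n = 2 each). The log2 fold change was -0.58 (SE 0.14, 95% interval -0.90 to -0.27), with an adjusted p of 0.0698 in edgeR. Over 13 other ways of processing the counts its adjusted p ran from 0.00889 to 0.223, and it was under 0.05 in 3 of them (DESeq2, no filter on low counts, and scaling by library size alone). Leaving out 1 library at a time moved the log2 fold change from -0.69 to -0.48. In bulk crypts, fewer cells of a type and less RNA per cell cannot be told apart.

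Ern1, which encodes the sensor and endonuclease IRE1α, was at 61.9 and 64.1 CPM in WT and at 53.0 and 62.0 CPM in Vil-CREPTKO. The groups overlapped narrowly (log2 fold change -0.13 ± 0.12 SE, adjusted p = 0.708 in edgeR). Atf6 was at 61.4 and 65.4 CPM in WT and at 54.8 and 58.7 CPM in Vil-CREPTKO. Its groups did not overlap, but the difference was small against its error (log2 fold change -0.16 ± 0.12 SE, adjusted p = 0.611 in edgeR). The markers of the secretory cell types known for a high Xbp1 level were spread in direction. None of 8 goblet cell markers passed the test (median log2 fold change -0.15), nor did any of 6 Paneth cell markers (0.11) or of 6 tested plasma cell markers (0.86, all 6 positive). Their part in the Xbp1 values was not tested.

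The other 22 genes of the branch, its chaperones, folding enzymes, ERAD and transport genes, shared a pattern over the libraries. All 22 had their highest CPM in Vil-CREPTKO replicate 1, which was the highest library for 26.2% of all tested genes. In that library their median log2 CPM was 0.30 above the WT mean. In Vil-CREPTKO replicate 2 it was 0.0075 above, while over all genes the medians were -0.013 and 0.0023. The fitted log2 fold change was positive in 21 of the 22, against 49.1% of all genes, with a median of 0.16, and only 1 (Sec61b) had an unadjusted p under 0.05. Without Vil-CREPTKO replicate 1 it was positive in 11 of the 22, and with scaling by library size alone in 16 of the 22, where 36.1% of all genes were positive. Vil-CREPTKO replicate 1 is the library with the larger mitochondrial share and the larger enterocyte, acinar and stromal marker sums given above, and their part in this pattern was not tested.

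**Figure D2:**
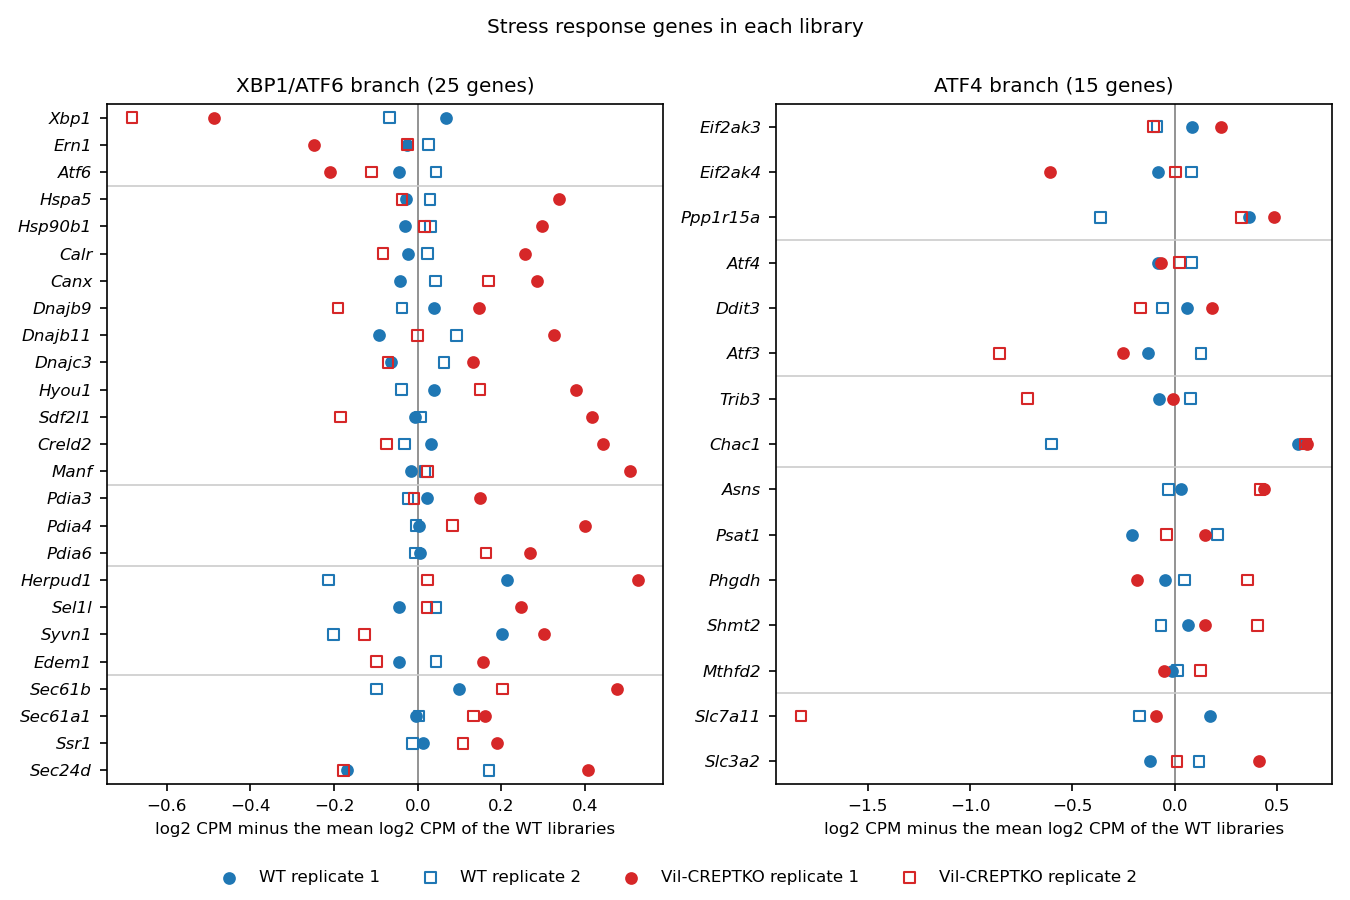
Log2 CPM of each gene in each of the 4 libraries, minus the mean log2 CPM of the WT libraries, for the XBP1/ATF6 branch (left) and the ATF4 branch (right, wider axis), with horizontal lines between roles. In the left panel the filled red point, Vil-CREPTKO replicate 1, lies furthest right for all 22 genes below Xbp1, Ern1 and Atf6, while Vil-CREPTKO replicate 2 lies near the WT libraries for most of them.

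The 11 chaperones and co-chaperones bind unfolded chains in the ER or help those that do. Their median log2 CPM was 0.33 above the WT mean in Vil-CREPTKO replicate 1 and -0.038 from it in replicate 2. Hspa5, the ER chaperone BiP that holds the sensors inactive, was at 621 and 647 CPM in WT and at 801 and 618 CPM in Vil-CREPTKO. Replicate 2 was thus below both WT libraries (log2 fold change 0.16 ± 0.19 SE, adjusted p = 0.778 in edgeR). Hsp90b1, the ER member of the HSP90 family, was at 339 and 354 CPM in WT and at 425 and 350 CPM in Vil-CREPTKO. It shares 15.7% of its exonic bases with overlapping genes. The same shape, with replicate 2 inside or below the WT range, held for Calr, Dnajb9, Dnajb11, Dnajc3, Sdf2l1 and Creld2.

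In 3 of the 11 chaperone genes (27.3%, against 21.0% of all genes) both Vil-CREPTKO libraries were above both WT libraries. Manf, a small secreted protein that ER stress induces, was at 138 and 141 CPM in WT and at 198 and 142 CPM in Vil-CREPTKO (fitted log2 fold change 0.29 ± 0.17 SE, adjusted p = 0.526 in edgeR). For Manf the second Vil-CREPTKO library was almost level with WT, and 9.25% of its exonic bases are shared with overlapping genes. Hyou1, a nucleotide exchange factor for BiP, was at 193 and 183 CPM in WT and at 245 and 209 CPM in Vil-CREPTKO (fitted log2 fold change 0.27 ± 0.15 SE, adjusted p = 0.473 in edgeR). Canx, the membrane lectin chaperone calnexin, was at 440 and 467 CPM in WT and at 552 and 509 CPM in Vil-CREPTKO. None of the 11 had an unadjusted p under 0.05.

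The 3 protein disulfide isomerases, which form and reshuffle disulfide bonds, had a median log2 fold change of 0.22. Pdia4 was at 104 and 103 CPM in WT and at 136 and 109 CPM in Vil-CREPTKO, and Pdia6 at 203 and 201 CPM against 243 and 226 CPM. In both genes the Vil-CREPTKO libraries lay above both WT libraries, as in 21.0% of all genes, and in Pdia3 the groups overlapped. Of the 4 ERAD genes, none had groups that did not overlap (median log2 fold change 0.11). Herpud1, an ER membrane protein that assembles the degradation complex, was at 209 and 156 CPM in WT and at 260 and 184 CPM in Vil-CREPTKO, so the WT libraries were further apart than the group means (log2 fold change 0.28 ± 0.21 SE, adjusted p = 0.620 in edgeR). Sel1l and Syvn1, which form the core of the ERAD ubiquitin ligase, and Edem1, a lectin-like factor, had log2 fold changes of 0.14, 0.089 and 0.034.

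Of the 4 genes of translocation and export, 3 were above WT in both Vil-CREPTKO libraries, as 21.0% of all genes were, and none passed the test. Sec61b (chr4:47474658-47483242) encodes a small subunit of the channel through which new proteins enter the ER. It was at 134 and 117 CPM in WT and at 174 and 144 CPM in Vil-CREPTKO (fitted log2 fold change 0.34, SE 0.15, 95% interval 0.0031 to 0.68, adjusted p = 0.344 in edgeR). A near-identical gene, Gm10320 (98.3% identity), held 1.73% as many counts as Sec61b, summed over the libraries. Sec61a1, the pore subunit of the same channel, was at 234 and 235 CPM in WT and at 262 and 258 CPM in Vil-CREPTKO, the closest pair of Vil-CREPTKO libraries in this role. Ssr1, of the translocon-associated complex, was at 185 and 182 CPM against 209 and 198 CPM. Sec24d, a cargo adaptor of the COPII coat, overlapped between groups.

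Some promoters of the branch held letters of the elements through which ATF6 and XBP1 are known to act. The pattern over the libraries was not limited to genes with such an element. Dnajb9, Edem1, Pdia3, Pdia4, Sdf2l1, Sec61b, Sel1l and Ssr1 had none of the motifs searched, and their highest CPM was also in Vil-CREPTKO replicate 1. In RefSeq windows from 250 bases before to 50 bases after the start site (GRCm38.p6), found for 36 of the 40 genes, the ER stress response element ERSE (CCAAT and CCACG with any 9 bases between them, both strands) was present in 8 of 21 genes of the XBP1/ATF6 branch, in 0 of 15 of the ATF4 branch and in 0.137% of 27025 genes. The 8 were Calr, Canx, Creld2, Dnajc3, Hsp90b1, Hspa5, Pdia6 and Syvn1. Their log2 fold changes ran from 0.033 to 0.23, all positive and none past the test, with Calr, Dnajc3 and Syvn1 negative under scaling by library size alone. Leaving out Vil-CREPTKO replicate 1 turned 5 of the 8 negative (Calr, Creld2, Dnajc3, Hspa5 and Syvn1). ERSE-II (ATTGG and CCACG with 1 base between them) was found in Dnajb11 and Herpud1 and in 0.0444% of genes, and the UPRE (TGACGTGG) in Sec24d and in 0.714% of genes. The window of Xbp1 held none of the 5 motifs searched. Of the sequences below, written 5′ to 3′ on the strand of the gene with the motif in capitals, Hspa5 (chr2:34772020-34772049, + strand, first base of the motif at -65 from the start site) and Canx (chr11:50325794-50325823, - strand, motif from -145) read ERSE on the gene's own strand. Calr (chr8:84847069-84847098, - strand, motif from -162) and Creld2 (chr15:88819515-88819544, + strand, motif from -126) read it on the other strand. Hsp90b1 has 1 copy on each strand (chr10:86705632-86705661 and chr10:86705527-86705556, - strand, motifs from -212 and -107). Herpud1 (chr8:94386368-94386397, + strand, motif from -52) reads ERSE-II.
Hspa5: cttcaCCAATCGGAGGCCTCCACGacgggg
Canx: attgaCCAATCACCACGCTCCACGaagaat
Calr: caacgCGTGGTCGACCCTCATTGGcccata
Creld2: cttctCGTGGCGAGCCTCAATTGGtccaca
Hsp90b1, own strand: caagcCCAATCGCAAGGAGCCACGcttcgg
Hsp90b1, other strand: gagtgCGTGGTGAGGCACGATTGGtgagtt
Herpud1: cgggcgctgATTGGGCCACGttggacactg

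The ATF4 branch was less uniform. The median log2 fold change over its 15 genes was 0.041, with 10 positive (66.7%, against 49.1% of all genes) and 5 negative. Of the 15 genes, 6 (40.0%, against 26.2% of all genes) had their highest CPM in Vil-CREPTKO replicate 1. The median log2 CPM of the 15 genes was 0.15 above the WT mean in that library and 0.011 above it in replicate 2. Over all genes these medians were -0.013 and 0.0023. The median of the XBP1/ATF6 branch minus that of the ATF4 branch was 0.11 in log2 fold change and -0.016 without Vil-CREPTKO replicate 1, so the gap between the branches rested on that library.

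The regulators of eIF2α phosphorylation gave overlapping groups. Eif2ak3, the ER kinase PERK, was at 30.7 and 27.2 CPM in WT and at 33.8 and 26.9 CPM in Vil-CREPTKO (fitted log2 fold change 0.069 ± 0.15 SE, adjusted p = 0.90 in edgeR). Eif2ak4, the amino acid sensor GCN2, was at 10.2 and 11.4 CPM in WT and at 7.06 and 10.8 CPM in Vil-CREPTKO, with replicate 1 the low library (log2 fold change -0.27 ± 0.23 SE, adjusted p = 0.665 in edgeR). Ppp1r15a, which encodes GADD34 and directs the phosphatase that ends the response, was at 4.15 and 2.50 CPM in WT and at 4.53 and 4.05 CPM in Vil-CREPTKO. Here WT replicate 2 was the low library, and the log2 fold change of 0.37 (± 0.30 SE, adjusted p = 0.662 in edgeR) became 0.049 without it.

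Among the transcription factors, Atf4 was level. It was at 173 and 194 CPM in WT and at 175 and 186 CPM in Vil-CREPTKO, both Vil-CREPTKO libraries inside the WT range (log2 fold change -0.023, SE 0.14, 95% interval -0.34 to 0.29). Ddit3, the stress factor CHOP, was at 18.0 and 16.6 CPM in WT and at 19.6 and 15.4 CPM in Vil-CREPTKO, so the Vil-CREPTKO libraries lay on both sides of WT (log2 fold change 0.017, SE 0.17, 95% interval -0.37 to 0.40). It shares 10.9% of its exonic bases with overlapping genes, among them Mars. Atf3, a factor induced by many stresses, was at 9.03 and 10.8 CPM in WT and at 8.28 and 5.44 CPM in Vil-CREPTKO. Its groups did not overlap, and it did not pass the test (log2 fold change -0.53, SE 0.24, adjusted p = 0.363 in edgeR).

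The stress effectors Trib3, a pseudokinase that restrains the response, and Chac1, which degrades glutathione, differed in sign. Trib3 was at 11.3 and 12.6 CPM in WT and at 11.8 and 7.21 CPM in Vil-CREPTKO. For Chac1 the WT libraries held 91 and 37 counts and the Vil-CREPTKO libraries 80 and 90, or 1.78 and 0.752 CPM against 1.84 and 1.83 CPM. Only WT replicate 2 was low, and the log2 fold change of 0.53 (± 0.45 SE, adjusted p = 0.671 in edgeR) became 0.044 without it. Slc7a11, the cystine transporter, was near the limit of detection, with 23 and 17 counts in the WT libraries and 16 and 4 in those of Vil-CREPTKO (log2 fold change -0.84 ± 0.79 SE, adjusted p = 0.710 in edgeR). Its longest transcript also holds a 373-base stretch like the tubulin genes Tuba1a, Tuba1b and Tuba1c, so these few counts are uncertain. Its partner Slc3a2, the heavy chain shared by several amino acid transporters, was at 236 and 278 CPM in WT and at 341 and 258 CPM in Vil-CREPTKO.

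The 5 enzymes of amino acid synthesis and one-carbon metabolism all had a positive log2 fold change (median 0.11), as 49.1% of all genes did. In 3 of the 5 the groups overlapped. In Asns and Shmt2 both Vil-CREPTKO libraries lay above both WT libraries, as in 21.0% of all genes. Asns (chr6:7675169-7693254), the asparagine synthetase, was at 36.6 and 35.1 CPM in WT and at 48.6 and 47.9 CPM in Vil-CREPTKO. The groups lay well apart and each pair of libraries lay close together, with 35.9 ± 1.06 against 48.3 ± 0.496 CPM (mean ± SD, n = 2 each). The log2 fold change was 0.43 (SE 0.12, 95% interval 0.16 to 0.69), with an adjusted p of 0.112 in edgeR, and the adjusted p ran from 0.0761 to 0.425 over the 13 other ways of processing. Shmt2, the mitochondrial serine hydroxymethyltransferase, was at 53.5 and 48.8 CPM in WT and at 56.6 and 67.7 CPM in Vil-CREPTKO (fitted log2 fold change 0.28 ± 0.13 SE, adjusted p = 0.388 in edgeR). Psat1 and Phgdh, of serine synthesis, and Mthfd2, of the mitochondrial folate cycle, had log2 fold changes of 0.041, 0.11 and 0.038. The sign held under every alternative for Asns and Shmt2. Psat1 was negative under scaling by library size alone and without WT replicate 1 or Vil-CREPTKO replicate 1, Mthfd2 under that scaling and without Vil-CREPTKO replicate 2, and Phgdh without Vil-CREPTKO replicate 2. Phgdh has processed pseudogenes, of which Gm7901 (98.7% identity) held 7.9% as many counts, summed over the libraries.

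The C/EBP-ATF element, through which ATF4 and its partners are known to act (TGATGNAA, both strands), was found in the promoter windows of 5 of 15 genes of the ATF4 branch (Asns, Atf3, Chac1, Slc7a11 and Trib3), in 1 of 21 of the XBP1/ATF6 branch (Herpud1) and in 4.51% of all genes. These 6 genes did not move in 1 direction. Their log2 fold changes ran from -0.84 (Slc7a11) to 0.53 (Chac1), with 3 positive and none past the test. The CRE (TGACGTCA) was found in Ppp1r15a and in 2.03% of genes. In Trib3 the element lies after the start site, from 15. The 4 genes of the branch with the element before the start site are shown, with the element in capitals. These are Asns (chr6:7693214-7693243, - strand, from -23), Chac1 (chr2:119351038-119351067, + strand, from -193, other strand), Atf3 (chr1:191183425-191183454, - strand, from -110, other strand) and Slc7a11 (chr3:50443651-50443680, - strand, from -66 and, on the other strand, from -47).
Asns: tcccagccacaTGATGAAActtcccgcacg
Chac1: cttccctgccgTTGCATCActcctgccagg
Atf3: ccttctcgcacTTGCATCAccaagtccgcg
Slc7a11: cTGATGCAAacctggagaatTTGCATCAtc

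Per length, the chaperones stood above the sensors in both genotypes. In CPM per kb of exonic length, the WT mean was highest for Calr (242), Pdia3 (183) and Hspa5 (150), followed by Sec61b (98.5), Canx (96.6) and Hsp90b1 (85.9). The sensors Ern1 (7.71), Atf6 (6.87), Eif2ak3 (4.81) and Eif2ak4 (1.45) were far lower, and Slc7a11 (0.0286) was the lowest. Among the factors, Atf4 (77.8) and Xbp1 (53.8) were well above Ddit3 (10.1) and Atf3 (4.61). The median WT level was 35.5 for the XBP1/ATF6 branch and 5.61 for the ATF4 branch. In Vil-CREPTKO the level of Xbp1 was 35.9 CPM per kb and that of Atf4 was 76.6.

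**Figure D3:**
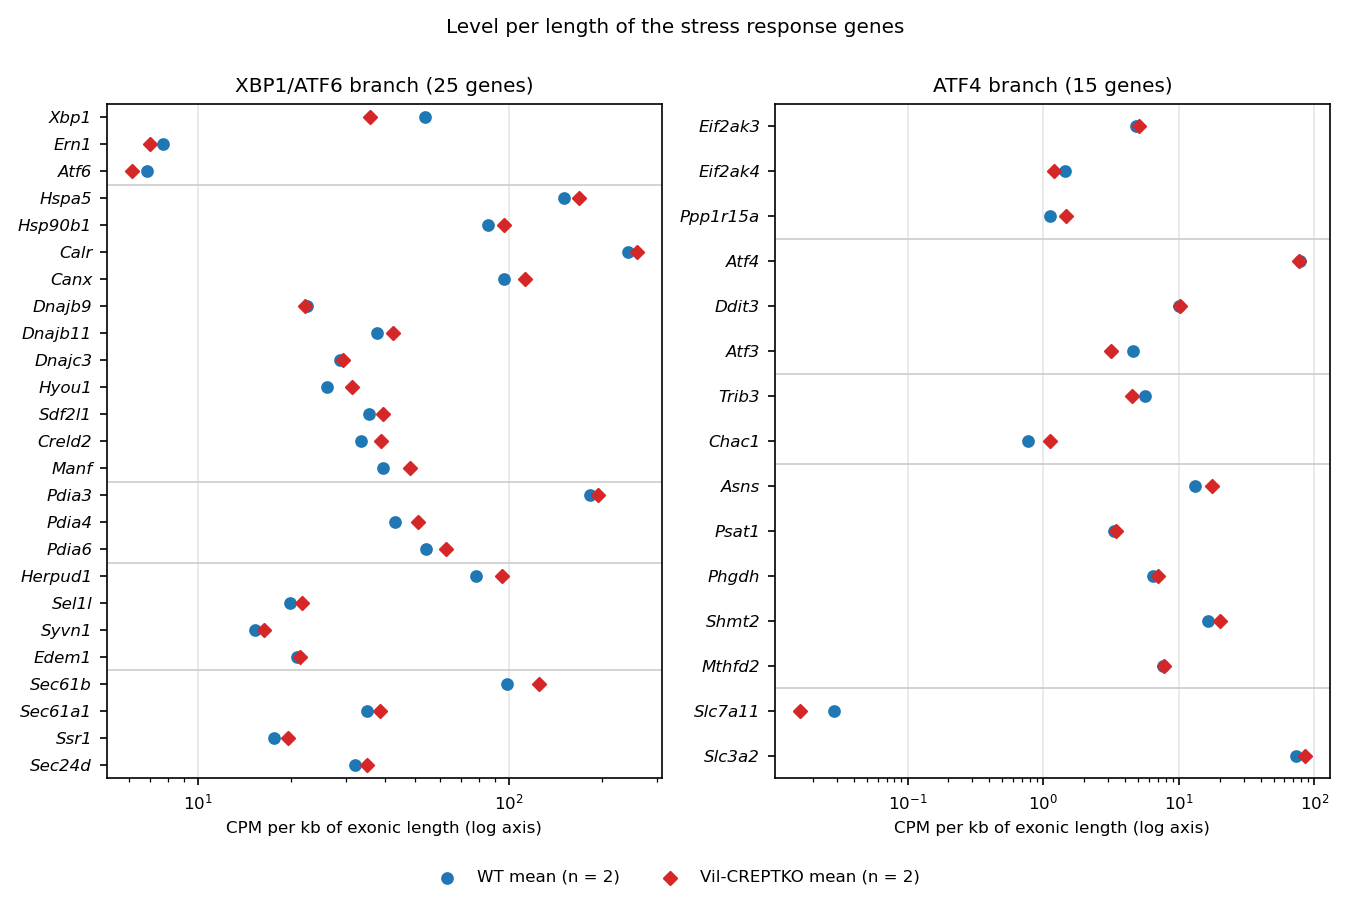
Mean CPM per kb of exonic length in WT (blue circles) and Vil-CREPTKO (red diamonds), n = 2 libraries each, on a log axis, by branch and role. The points of the groups nearly coincide for most genes, and Xbp1 is the gene of the left panel in which they are furthest apart.

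The wider pathways were read from 113 further genes, of which 108 were tested. In edgeR 4 were lower in Vil-CREPTKO at an adjusted p under 0.05 (3.7%, against 2.29% of all genes) and 0 were higher (against 0.423%). At an unadjusted p under 0.05 there were 16 (14.8%, against 14.3% of all genes). Of the 4 genes lower at an adjusted p under 0.05, 2 came from the list of other translocation and N-glycosylation genes and 2 from that of other ER stress sensors and factors. Ssr4 (chrX:73787028-73790830), a subunit of the translocon-associated complex, was at 140 and 131 CPM in WT and at 46.9 and 37.4 CPM in Vil-CREPTKO (fitted log2 fold change -1.69 ± 0.14 SE, adjusted p = 0.0014 in edgeR). Srpr (chr9:35200175-35247973), a subunit of the receptor that docks ribosomes at the ER, was at 113 and 125 CPM in WT and at 68.2 and 70.2 CPM in Vil-CREPTKO (fitted log2 fold change -0.78 ± 0.12 SE, adjusted p = 0.013 in edgeR). These 2 kept an adjusted p under 0.05 in all 13 other ways of processing.

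The other 2 were transcription factors of the ER membrane. Atf6b (chr17:34647146-34655074), the paralog of Atf6, was at 60.7 and 63.2 CPM in WT and at 40.5 and 42.0 CPM in Vil-CREPTKO (fitted log2 fold change -0.59 ± 0.11 SE, adjusted p = 0.034 in edgeR). Creb3l4 (chr3:90237500-90243512), of the CREB3 family, was at 11.7 and 13.7 CPM in WT and at 5.71 and 6.56 CPM in Vil-CREPTKO (fitted log2 fold change -1.05 ± 0.19 SE, adjusted p = 0.025 in edgeR). In both the groups lay far apart. Their adjusted p rose over 0.05 when WT replicate 2 was left out (Atf6b 0.146 and Creb3l4 0.0708), and also without Vil-CREPTKO replicate 1. Atf6b rose over it, too, without WT replicate 1 and with correction for GC content and length, with or without the replicate block, so that it kept the call in 8 of 13 alternatives and Creb3l4 in 11 of 13.

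Of the 9 other ER stress sensors and factors, 7 had a negative log2 fold change, with a median of -0.51. Beside Atf6b and Creb3l4, Creb3 was at 39.5 and 49.1 CPM in WT and at 30.1 and 29.4 CPM in Vil-CREPTKO (adjusted p = 0.079 in edgeR). Ern2, the IRE1β of mucus-producing epithelium, was at 31.8 and 29.2 CPM against 18.2 and 24.5 CPM (adjusted p = 0.185 in edgeR). Creb3l3, a factor of enterocytes and liver, was at 330 and 331 CPM against 270 and 158 CPM (adjusted p = 0.254 in edgeR). Unlike the chaperones, this list had nearly the same median in both Vil-CREPTKO libraries, -0.32 from the WT mean in each.

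The remaining lists held no further called gene beside Ssr4 and Srpr, which both belong to the 19 genes of translocation and N-glycosylation (median log2 fold change 0.057). The medians were 0.089 for 18 genes of ER folding, 0.030 for 13 of ERAD, 0.13 for 10 of COPII export, 0.11 for 13 ATF4-type factors and effectors, 0.037 for 14 amino acid genes and 0.18 for 12 tRNA synthetases (9 positive). Closest to the threshold were Ero1l, the oxidase that recharges disulfide isomerases, and Gdf15, a secreted stress hormone. Ero1l was at 64.6 and 51.1 CPM in WT and at 90.8 and 88.8 CPM in Vil-CREPTKO (fitted log2 fold change 0.63, adjusted p = 0.052 in edgeR). Gdf15 was at 1.39 and 1.32 CPM in WT and at 2.81 and 4.32 CPM in Vil-CREPTKO (fitted log2 fold change 1.39, adjusted p = 0.072 in edgeR). In both genes the groups did not overlap. Among the remaining markers, all 5 tuft cell genes had a negative log2 fold change (median -0.87). Of the 5, 3 were lower at an adjusted p under 0.05 in edgeR, against 2.29% of all genes. None of 6 enteroendocrine (median 0.10), 6 enterocyte (0.28), 7 lymphocyte (-0.16), 4 tested stromal and muscle (0.86) or 6 acinar genes (1.3) passed the test. All 6 acinar genes were positive, with an unadjusted p under 0.05 in edgeR.

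**Figure D4:**
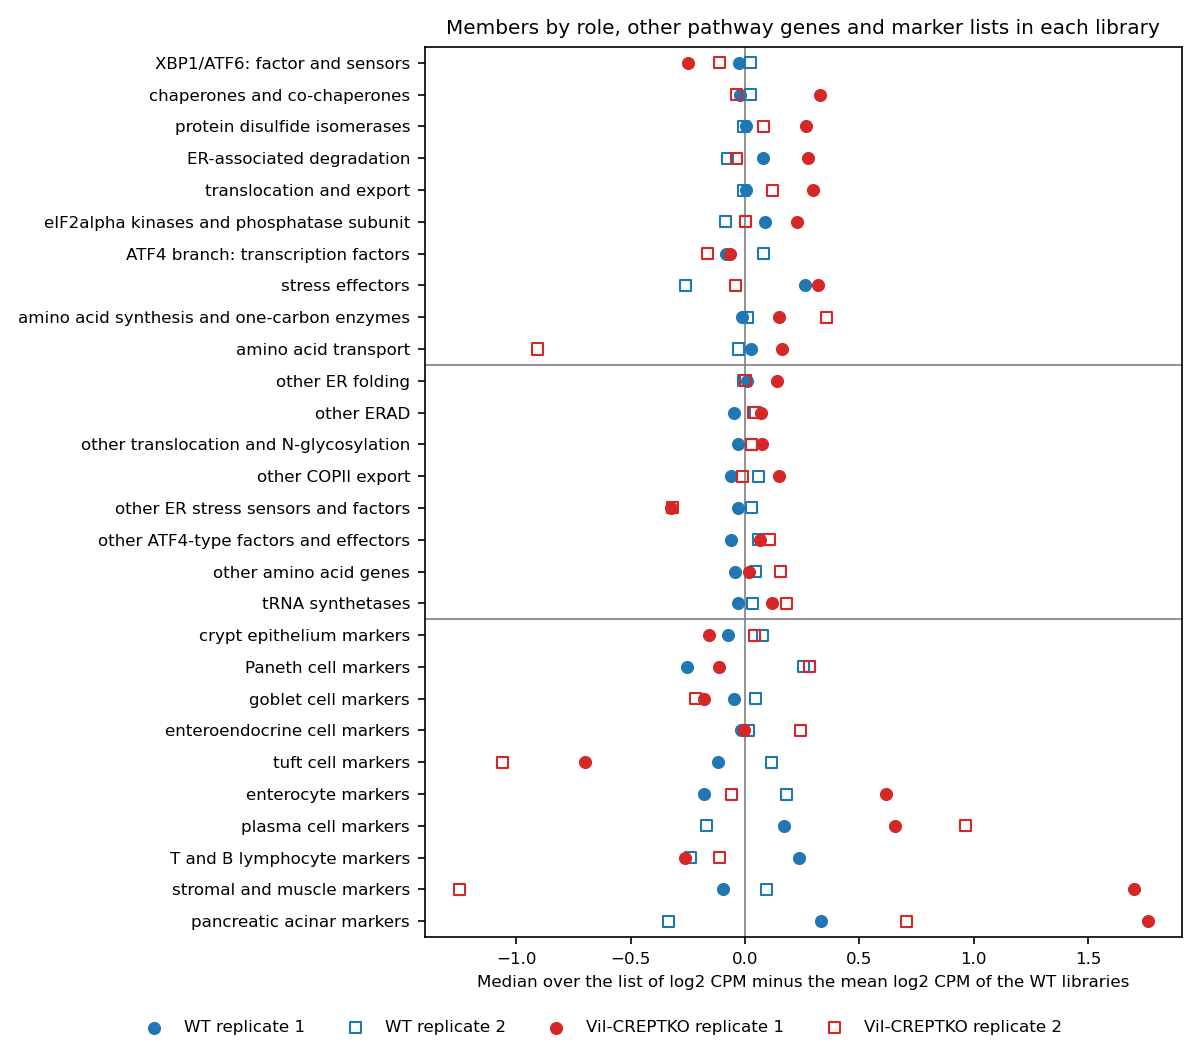
Median over each list of log2 CPM minus the mean log2 CPM of the WT libraries, 1 point per library, for the 40 genes by role (top), the other pathway genes (middle) and the cell type markers (bottom). Chaperones, disulfide isomerases, ERAD and transport genes lie to the right in Vil-CREPTKO replicate 1, as do enterocyte, stromal and acinar markers, while other ER stress sensors and factors lie to the left in both Vil-CREPTKO libraries.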

How the data were processed

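RNA-seq counts of 4 crypt libraries were used. The authors deposited whole-number counts per gene, 1 column per library; per the labels and methods, reads were handled with CASAVA 1.8 and mapped with Bowtie2 to transcripts of GRCm38.p6, and expression was estimated with RSEM. The strand setting was not given in the sources used here, so reads of overlapping genes cannot be told apart. Methods and record name different instruments. Symbols and coordinates came from GENCODE (99.1% of rows matched). Genes were kept by filterByExpr, scaled by TMM and tested in R 4.3.3 with edgeR 4.0.16 (quasi-likelihood, group only, two-sided, Benjamini-Hochberg over all 17504 genes); DESeq2 1.42.0, the tool of the study, and other scalings, filters, corrections and left-out libraries were alternatives. CPM are over tested genes after TMM. A count of 0 allowed at most 3 counts (0.0588 to 0.069 CPM). Libraries of a group differed beyond sampling noise (chi-square per gene 49.8 and 70.1). The fit was tested on simulated data. Near-identical copies were sought with blastn 2.17.0.

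The members and lists were chosen with earlier results of these data known. Named with all library values were 8 sensors and factors, members past the threshold, and the 5 largest absolute log2 fold changes per branch, plus examples by role; genes of other lists were named where called or where their list was described. Replicates were separate mice per the figure legends of the study, and its methods call them biological replicates. Protein sequences were not analysed here.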

Additional observations from a re-analysis of the deposited data

How the results depend on the processing

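The count of members with an adjusted p under 0.05, 0 in edgeR with TMM, was 1 (Xbp1) with scaling by library size alone, 1 (Xbp1) with DESeq2 and 1 (Xbp1) without a filter on low counts, and 0 with each library left out. Over all genes the count was 474 in edgeR, 848 with DESeq2 and 1233 without a filter. Leaving out 1 library at a time, the median log2 fold change ranged from -0.012 to 0.29 for the XBP1/ATF6 branch (0.15 with all libraries), from 0.0035 to 0.14 for the ATF4 branch (0.041), and from -0.016 to 0.15 for their difference (0.11). In each case the lowest value was without Vil-CREPTKO replicate 1 and the highest without Vil-CREPTKO replicate 2. With scaling by library size alone the ATF4 branch median was -0.049, where the median of all genes was -0.098. The cause was not tested.

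Of 519 log2 fold changes of single members recomputed, 473 kept their direction and side of the threshold, 3 (Xbp1) passed it and 43, in 17 members, changed sign. With scaling by library size alone these were Calr -0.0044, Dnajc3 -0.063, Pdia3 -0.025, Syvn1 -0.022, Edem1 -0.064, Eif2ak3 -0.035, Ddit3 -0.087, Psat1 -0.049 and Mthfd2 -0.050. Dnajb9 was 0.0058 with RLE scaling, 0.021 with upper-quartile scaling and 0.0059 with DESeq2. Atf4 was 0.012 with upper-quartile scaling. With correction for GC content and length, Atf4 was 0.065 and Ddit3 was -0.044, and with the replicate block added Atf4 was 0.066 and Ddit3 was -0.051. With 1 library left out, the values ranged from -0.041 to 0.34 for Hspa5, -0.086 to 0.26 for Calr, -0.20 to 0.15 for Dnajb9, -0.0072 to 0.33 for Dnajb11, -0.075 to 0.14 for Dnajc3, -0.19 to 0.42 for Sdf2l1, -0.077 to 0.45 for Creld2, -0.012 to 0.16 for Pdia3, -0.15 to 0.30 for Syvn1, -0.10 to 0.16 for Edem1, -0.19 to 0.40 for Sec24d, -0.11 to 0.23 for Eif2ak3, -0.10 to 0.063 for Atf4, -0.17 to 0.19 for Ddit3, -0.16 to 0.27 for Psat1, -0.18 to 0.36 for Phgdh and -0.049 to 0.12 for Mthfd2.

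The replicate numbers are shared by the groups, but nothing in the labels says that they pair the mice, and the deviations of same-numbered libraries correlated at 0.028 over genes. With the replicate block, 0 members had an adjusted p under 0.05, the branch medians were 0.15 and 0.053, and 558 genes were called. With 2 libraries per group, a median SE of 0.17 on the log2 scale was the limit for the members. Slc7a11 had too few counts for the filter of at least 10 counts in every library.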
